A study of Mus musculus with 9 samples.

Results

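Expression of 10 genes of interleukin-1 (IL-1) signalling was measured in the testis of Tmem203 null and wild-type (WT) mice. They were the ligands Il1a and Il1b, the antagonist Il1rn, the receptor chains Il1r1, Il1r2, Il1rap, Il1rl1 and Il1rl2, the adaptor Myd88, and Ly96, a partner of a Toll-like receptor. The members were all probe sets annotated to just 1 of these 10 genes, out of 45037 probe sets and 18194 genes on the arrays. A total of 17 probe sets for 9 genes was found, and Il1rl1 was not analysed here. The tissue came from 5 Tmem203 null samples and 4 WT samples, all 24 weeks of age on the C57BL/6J background, and no sample was treated. One Affymetrix mouse expression array was run per sample, and a probe set on it is a group of short oligonucleotides read together as 1 value. Values are log2 signals per probe set, so a difference of 1 is a doubling.

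TMEM203 is a membrane protein of the endoplasmic reticulum, and the arrays compared Tmem203 null with WT testes. The null allele, targeted in C57BL/6 embryonic stem cells and passed through the germline, lacks the start codon and a short part of the 5′ UTR. The selection cassette was removed by Flpe, and RNA from the remaining sequence is not prevented by this design. Tmem203 signal averaged 9.11 ± 0.03 in null testes and 9.81 ± 0.13 in WT testes (SD, n = 5 and 4), and it fell by 0.70 on the log2 scale (adjusted p = 0.000287). Where its probes lie relative to the removed bases was not examined. Left and right testes were collected separately, and the labels do not say whether each array is a separate animal, so the spread behind each test may in part lie within animals.

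IL-1α and IL-1β are inflammatory cytokines that bind IL1R1, which then recruits the shared chain IL1RAP. The joined tails of both chains bind MYD88, and IRAK kinases and TRAF6 carry the signal on to the transcription factor NF-κB. IL1RN blocks IL1R1, IL1R2 takes up ligand without signalling, and IL1RL2 is the receptor for the IL-36 cytokines. Toll-like receptors share the same intracellular domain and the same adaptor. In the rat testis, Sertoli cells are a known source of IL-1α, and resident macrophages of the interstitium can make IL-1β.

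The receptor genes Il1rl2 and Il1r1 and the co-receptor gene Ly96 were higher in null testes, while no ligand passed the test and neither did the shared receptor chain Il1rap. Il1rl2 rose 2.72-fold and Il1r1 1.74-fold, each on 1 of its 2 probe sets, and Ly96 rose 1.53-fold. The Il1rl2 probe set that rose is of a kind that can bind more than 1 transcript. Of the 17 probe sets, 3 were higher at an adjusted p under 0.05 in limma, and 4.12% of all probe sets were. None of the 17 was lower, against 3.36% of all probe sets. All 3 also met the thresholds of the methods as applied here, which were an adjusted p under 0.05 and at least 1.5-fold. These thresholds also asked for a signal of at least 32, a log2 of 5, on at least 1 array. They further asked for a probe set of 1 gene, judged here by the annotated symbol alone. In this direction, 286 of the 34945 single-gene probe sets met them, which is 0.635% of all 45037 probe sets. In the same 3, every null array lay above every WT array, as in 5.68% of all probe sets. A signal of 32 was reached on at least 1 array by 8 of the 17 probe sets, which stand for 7 genes. The other 9 probe sets, among them those of Il1a and Il1rn, were below it on all 9 arrays. In whole testis, a change in RNA per cell and a change in the number of cells of a type cannot be told apart.

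**Figure D1:**
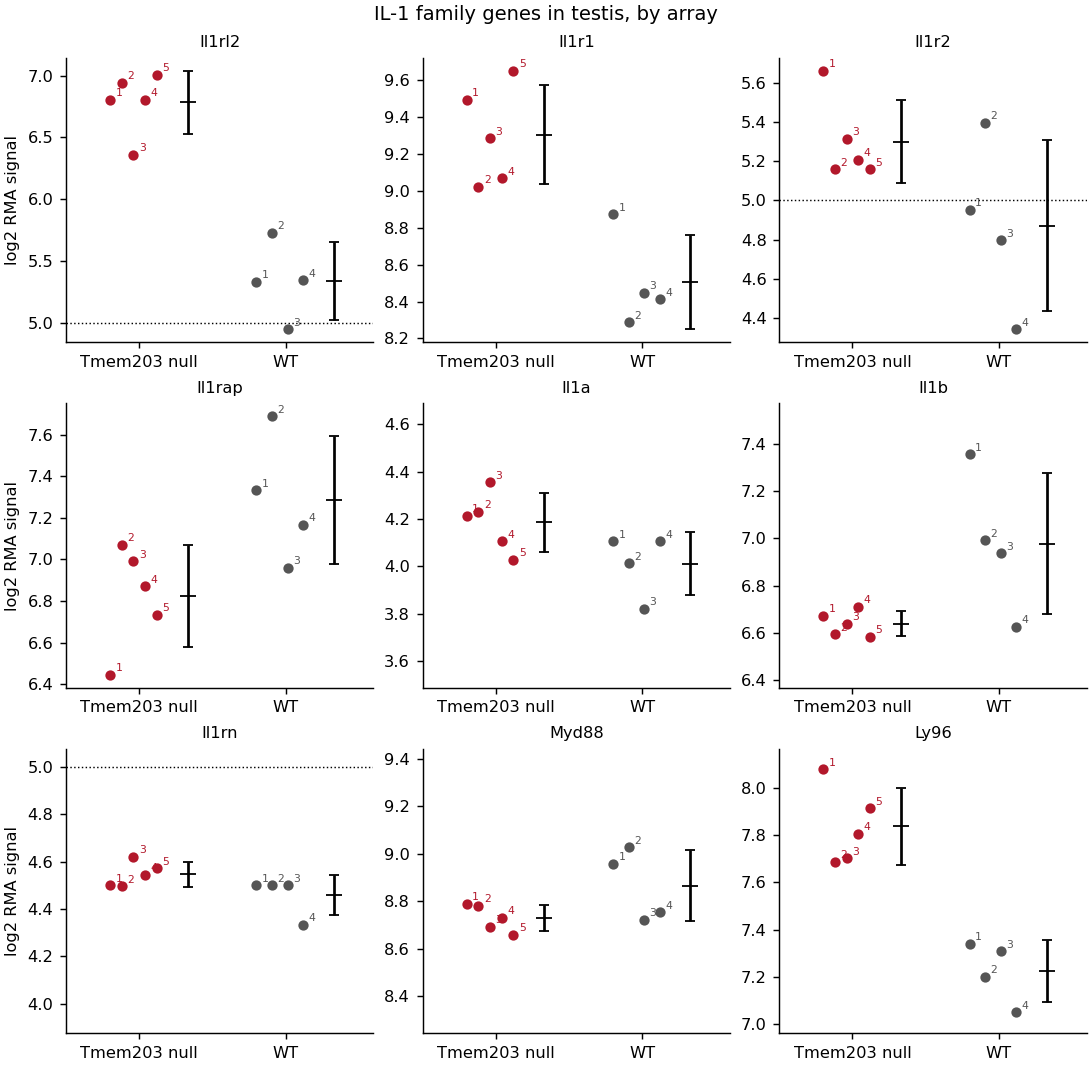
Log2 signal of 9 IL-1 family genes on each array, for Tmem203 null testes (red, left, n = 5) and WT testes (grey, right, n = 4), using the probe set of each gene with the highest mean. Numbers are replicates, the bar is the mean with its SD and the dotted line is a log2 signal of 5. The null points lie wholly above the WT points for Il1rl2, Il1r1 and Ly96, and overlap them in the other 6 panels.

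The windows ahead of the start sites of Il1rl2 and Il1r1 are shown because these neighbouring receptor genes both rose. RefSeq (GRCm38.p6) gives 1 start for Il1rl2, with the 250 bases before it at chr1:40324339-40324588 on the plus strand. It gives 2 starts for Il1r1, with windows at chr1:40224830-40225079 and chr1:40266336-40266585, both on the plus strand. The arrays do not tell which start was used. Capitals mark matches to any of 4 motifs, searched on both strands.
Il1rl2: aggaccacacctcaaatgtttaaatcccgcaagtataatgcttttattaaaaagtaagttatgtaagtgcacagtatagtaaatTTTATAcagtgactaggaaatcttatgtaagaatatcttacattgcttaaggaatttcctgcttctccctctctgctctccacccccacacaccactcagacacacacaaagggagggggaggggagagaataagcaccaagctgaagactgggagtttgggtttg
Il1r1 first start: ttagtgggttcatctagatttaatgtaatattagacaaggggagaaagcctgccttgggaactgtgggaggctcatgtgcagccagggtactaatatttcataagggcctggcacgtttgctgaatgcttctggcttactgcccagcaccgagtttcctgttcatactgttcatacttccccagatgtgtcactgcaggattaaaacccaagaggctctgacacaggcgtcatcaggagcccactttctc
Il1r1 second start: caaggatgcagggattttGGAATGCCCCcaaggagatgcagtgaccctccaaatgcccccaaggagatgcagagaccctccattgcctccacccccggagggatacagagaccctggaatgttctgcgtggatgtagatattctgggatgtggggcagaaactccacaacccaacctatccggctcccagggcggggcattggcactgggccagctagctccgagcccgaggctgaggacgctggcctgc
The motifs were an NF-κB site (GGGNNNNNCC, in 45.8% of 32851 RefSeq windows of this length), an AP-1 site (TGANTCA, 6.75%), a GATA site (AGATAA, 9.99%) and a TATA box (TATAAA, 12.4%). The Il1rl2 window held 1 match to TATAAA, in reverse, 166 bases before the start, and it was 41.2% G and C. The first Il1r1 window held no match. The second held 1 reverse match to the NF-κB letters, 232 bases before the start, and it was 60.4% G and C. No match overlapped another motif in these 3 windows.

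Among receptors, Il1rl2 had the largest fold change of the 17 probe sets. Its probe set 1434903_s_at read 6.80, 6.94, 6.36, 6.80 and 7.01 in the 5 null testes, against 5.33, 5.73, 4.95 and 5.35 in the 4 WT testes. The lowest null array, replicate 3, was still well above the highest WT array, replicate 2, and 1 WT array was below the log2 signal of 5. The difference was 1.44 ± 0.16 on the log2 scale (SE; 95% interval 1.09 to 1.80; adjusted p = 0.000850). The suffix _s_at means that these probes can bind more than 1 transcript. The second Il1rl2 probe set, 1450273_at, stayed below a signal of 32 on every array, with 3.96 to 4.09 in null testes and 3.86 to 4.23 in WT testes. Its difference was -0.02 ± 0.07 (SE; adjusted p = 0.900), so the rise of Il1rl2 rested on the one probe set. The study's own list of up-regulated genes holds Il1r1 and Ly96 but not Il1rl2.

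Il1r1, the signalling receptor of IL-1α and IL-1β, was read by 1448950_at at 9.49, 9.02, 9.29, 9.07 and 9.65 in null testes, against 8.87, 8.29, 8.45 and 8.41 in WT testes. Null replicates 1 and 5 were the highest, and the groups did not overlap, with null replicate 2 the lowest of its group and WT replicate 1 the highest of its own. The difference was 0.80 ± 0.15 (SE; 95% interval 0.46 to 1.14; adjusted p = 0.0117). The other Il1r1 probe set, 1459777_at, was below 32 throughout, at 2.49 to 2.95 in null testes and 2.56 to 2.81 in WT testes (difference 0.10 ± 0.09, adjusted p = 0.564).

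Il1r2, the decoy receptor, did not pass the test. It read 5.66, 5.16, 5.31, 5.21 and 5.16 in null testes and 4.95, 5.40, 4.80 and 4.34 in WT testes. Only WT replicate 2 was in the range of the null arrays, and the WT group spread over more than the null group. The difference was 0.43 ± 0.18 (SE; 95% interval 0.02 to 0.84; adjusted p = 0.198).

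Il1rap, the chain that IL1R1 and IL1RL2 both need, did not pass the test in any of its 5 probe sets. The one with the highest signal, 1439697_at, read 6.45, 7.07, 6.99, 6.87 and 6.73 in null testes and 7.33, 7.69, 6.96 and 7.17 in WT testes. All but WT replicate 3 were above every null array, and that array lay among the null values. The difference was -0.46 ± 0.16 (SE; 95% interval -0.81 to -0.12; adjusted p = 0.106). Probe set 1421844_at gave -0.16 ± 0.07 (adjusted p = 0.204). The other 3 were below 32 on all arrays and gave -0.24, 0.09 and 0.13, with adjusted p between 0.255 and 0.627.

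**Figure D2:**
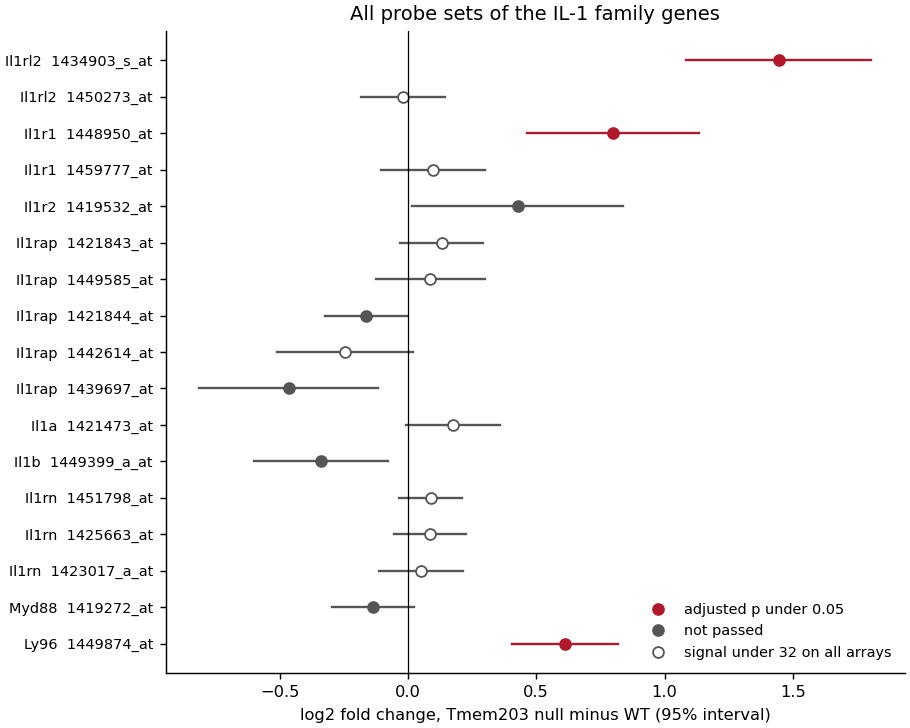
Log2 fold change (Tmem203 null minus WT) of all 17 probe sets with 95% intervals, in red where the adjusted p was under 0.05. Open circles had a signal under 32 on all arrays, and the 3 red points are Il1rl2, Il1r1 and Ly96.

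No ligand or antagonist passed the test. Il1b read 6.67, 6.59, 6.64, 6.71 and 6.58 in null testes, against 7.36, 6.99, 6.94 and 6.63 in WT testes. WT replicate 4 lay among the null arrays, and the other 3 WT arrays were above all of them. The difference was -0.34 ± 0.12 (SE; 95% interval -0.60 to -0.08; adjusted p = 0.116), and without WT replicate 4 it was -0.455 with an adjusted p of 0.0232. Il1a was at 4.03 to 4.35 in null testes and 3.82 to 4.11 in WT testes (difference 0.17 ± 0.08, adjusted p = 0.237), below a signal of 32 on every array. The 3 Il1rn probe sets were also below it, with differences of 0.05, 0.09 and 0.09 and adjusted p from 0.382 to 0.726.

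Myd88, the adaptor of these receptors, read 8.79, 8.78, 8.69, 8.73 and 8.66 in null testes and 8.96, 9.03, 8.72 and 8.75 in WT testes. The groups overlapped, and the difference was -0.13 ± 0.07 (SE; 95% interval -0.30 to 0.03; adjusted p = 0.299). Ly96 encodes MD-2, which binds lipopolysaccharide together with TLR4, and it was higher in null testes. It read 8.08, 7.69, 7.70, 7.80 and 7.91 in null testes against 7.34, 7.20, 7.31 and 7.05 in WT testes. Every null array was above every WT array, with null replicate 1 the highest. The difference was 0.61 ± 0.09 (SE; 95% interval 0.41 to 0.82; adjusted p = 0.00407), which is 1.53-fold and only a little above the 1.5-fold threshold.

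Left out in turn, no single array ended the call of these 3 genes. The log2 fold change ran from 1.31 to 1.57 for Il1rl2, from 0.714 to 0.923 for Il1r1 and from 0.552 to 0.65 for Ly96. Against a change of 1.2-fold instead of 0, Il1rl2 alone of the 3 passed (adjusted p = 0.00532), and Il1r1 and Ly96 had adjusted p of 0.224 and 0.178.

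Among the other receptors of the family, Sigirr went the other way. SIGIRR, a single-domain receptor that dampens IL-1 and Toll-like receptor signalling, was read at 8.72, 8.81, 8.75, 8.66 and 8.76 in null testes, against 9.53, 9.62, 9.86 and 9.53 in WT testes. The groups were far apart relative to their spread. Its level fell by 0.89 on the log2 scale (SE 0.07; 95% interval -1.05 to -0.73; adjusted p = 0.000138). Of the 9 receptor genes measured, 2 were higher and 1 was lower, with a median difference of -0.04. Across all 18194 genes, by the probe set with the highest mean, 5.82% were higher and 4.82% lower, with a median of -0.02. Il18r1 and Il18rap, the receptor chains for IL-18, and Il1rapl1 and Il1rapl2 were below a signal of 32 and did not pass.

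**Figure D3:**
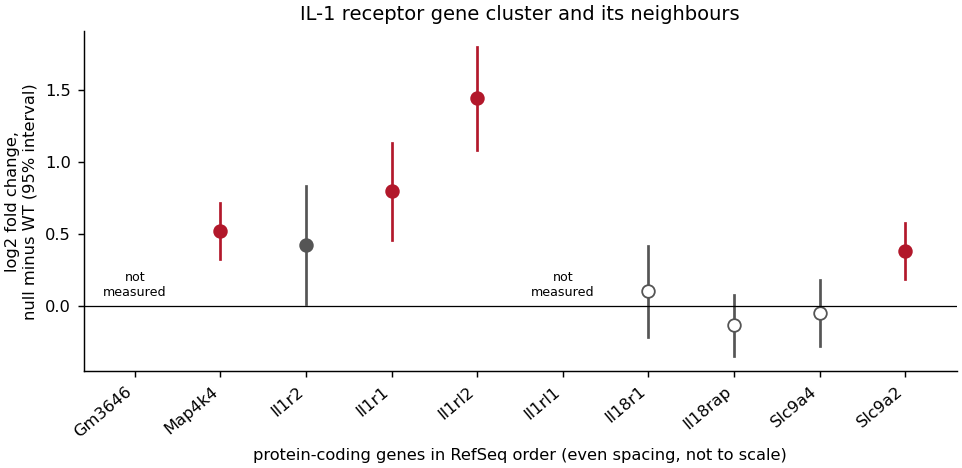
Log2 fold change with 95% interval (Tmem203 null minus WT) for the genes of the IL-1 receptor cluster on mouse chromosome 1 and their neighbours in RefSeq order, evenly spaced. Red points passed the test, open points were under a signal of 32 on all arrays, and the high points are Il1r1 and Il1rl2, with Map4k4 and Slc9a2 the other red ones.

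The receptor genes of the list lie next to each other on chromosome 1, in the order Il1r2, Il1r1, Il1rl2 and Il1rl1, followed by Il18r1 and Il18rap. Il1r1 and Il1rl2 rose, Il1r2 differed by 0.43 without passing, and Il18r1 and Il18rap differed by 0.11 and -0.13 with adjusted p of 0.701 and 0.448. Outside the cluster, Map4k4, a kinase gene, was higher by 0.52 ± 0.09 (SE; adjusted p = 0.00658) and Slc9a2, a sodium-proton exchanger gene, by 0.38 ± 0.09 (SE; adjusted p = 0.0272). Slc9a4, between the cluster and Slc9a2, differed by -0.05 and was below 32. In the chromosome 2 cluster that holds the IL-36 genes and Il1rn, all 6 genes were below 32 and none passed, while Hnmt, the first measured gene on one side, was higher by 0.54 ± 0.11 (SE; adjusted p = 0.0197) and Psd4 and Pax8 on the other did not pass. Next to Il1a and Il1b, the neighbours Slc20a1, Ckap2l and Sirpa did not pass.

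The wider pathway was read 1 probe set per gene, from 6 lists. Without the 10 members, 94 of 104 listed genes were measured, and 13 were higher and 4 lower, with a median difference of 0.04. Over all genes 5.82% were higher and 4.82% lower, and the genes of these lists were chosen with results of these data known. Ligands and soluble inhibitors gave 0 calls of 11 genes, with 4 genes at a signal of 32. Il18 was singled out after its values were seen. It read 7.80 to 8.08 in null testes against 7.52 to 7.77 in WT testes, with a difference of 0.28 ± 0.08 (SE; adjusted p = 0.0601). Its groups did not overlap, as in 5.68% of all probe sets in this direction, and it did not pass.

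In the relay from MYD88 to NF-κB, 3 of 23 genes were higher and 0 lower, with a median of -0.00. The shares over all genes were 5.82% and 4.82%. Nfkbia, which encodes the inhibitor IκBα, averaged 12.63 ± 0.07 in null testes and 12.33 ± 0.06 in WT testes (SD; difference 0.30 ± 0.06, adjusted p = 0.0105). Relb, an NF-κB subunit, differed by 0.36 ± 0.07 (adjusted p = 0.0170), and Traf6, a ubiquitin ligase, by 0.33 ± 0.08 (adjusted p = 0.030). The Traf6 call was lost on leaving out any 1 of 7 of the 9 arrays, with adjusted p up to 0.09, and Relb lost its call without WT replicate 2 (adjusted p = 0.0541). None of the 4 other Traf6 probe sets passed, at -0.095 to 0.13, while 3 of the 4 other Nfkbia probe sets were higher.

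Of 19 Toll-like receptor and co-receptor genes, Ly96 included, 3 were higher and 1 was lower, against 5.82% and 4.82% of all genes. Tlr9, an endosomal receptor for unmethylated DNA, averaged 5.71 ± 0.07 in null testes and 6.26 ± 0.19 in WT testes (SD; difference -0.55 ± 0.09, adjusted p = 0.00462). The adaptors Ticam1 and Tirap were higher by 0.37 ± 0.08 and 0.32 ± 0.07 (SE; adjusted p = 0.0219 and 0.0270). The other Tirap probe set gave 0.22 and did not pass. Tirap lost its call without WT replicate 1 or 2 or null replicate 1, 2 or 4 (adjusted p up to 0.0772), and Ticam1 without null replicate 5 (0.0577). Tlr4, the partner of Ly96, was singled out after its values were seen. It differed by 0.44 ± 0.15 (adjusted p = 0.122), and it averaged below 32 in both groups. The 3 other Tlr4 probe sets gave -0.14 to 0.01 and did not pass.

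Of 12 genes of IL-1 maturation and the inflammasome, 3 were higher and 2 were lower, against 5.82% and 4.82% of all genes. Gsdmd, the pore protein that releases IL-1β, averaged 8.73 ± 0.12 in null testes and 9.48 ± 0.14 in WT testes (SD) and fell by 0.75 on the log2 scale (SE 0.08; adjusted p = 0.000689). Casp1, the protease that matures IL-1β, fell by 0.40 (SE 0.10; adjusted p = 0.0418). It was named outside the rule, after its values were seen. P2rx7, an ATP-gated channel, was higher by 0.47 ± 0.09 (adjusted p = 0.0135), Casp4 by 0.67 ± 0.16 (adjusted p = 0.0311) and Nek7, a kinase that activates NLRP3, by 0.24 ± 0.06 (adjusted p = 0.0342). Of the 2 other P2rx7 probe sets 1 was higher, and neither of the 2 others of Nek7 passed, at 0.29 and 0.30. Casp4 read 4.10 to 4.96 in WT testes, below a signal of 32 on every WT array, and 5.15 to 5.52 in null testes. Nlrp3 and Pycard, which form the inflammasome with Casp1, did not pass, at -0.10 and 0.16, and Nlrp3 was below 32 on all arrays. Casp1, Casp4 and Nek7 each lost their call on leaving out several of the single arrays, with adjusted p of up to 0.0993, 0.0757 and 0.0829.

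**Figure D4:**
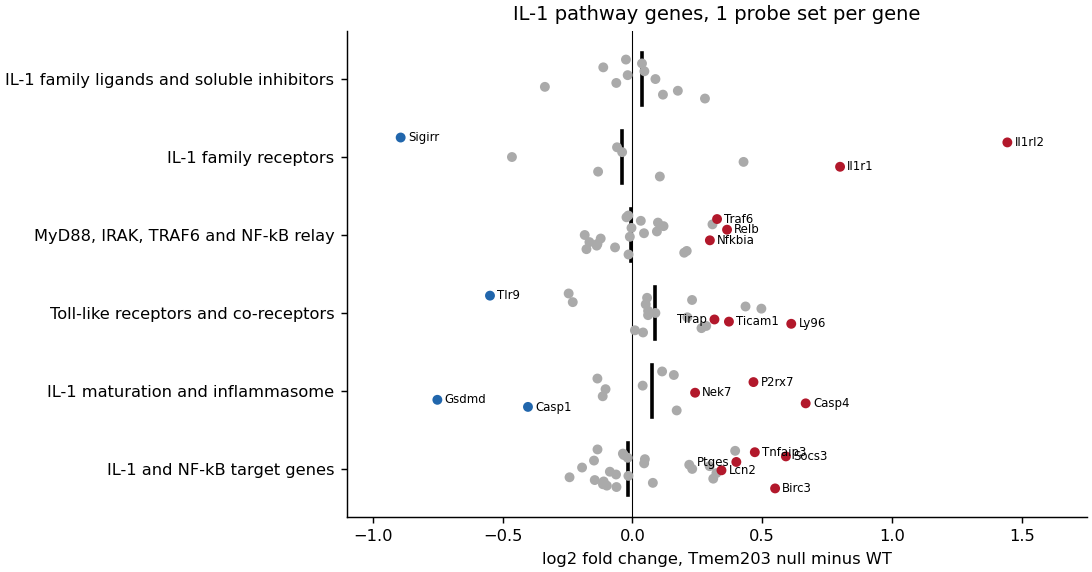
Log2 fold change (Tmem203 null minus WT) of each gene of 6 IL-1 pathway lists, 1 probe set per gene, with called genes named, red higher and blue lower. The black bar is the list median, which lay between -0.04 and 0.09.

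Of 29 genes known as IL-1 and NF-κB targets, 5 were higher and 0 lower, with a median of -0.02. Among all genes the shares were 5.82% and 4.82%. Tnfaip3, the NF-κB-limiting enzyme A20, averaged 6.74 ± 0.10 in null testes and 6.27 ± 0.09 in WT testes (SD; difference 0.47 ± 0.07, adjusted p = 0.00286). Ptges, a prostaglandin E synthase, differed by 0.40 ± 0.05 (adjusted p = 0.00241), and Birc3, an inhibitor of cell death, by 0.55 ± 0.10 (adjusted p = 0.00990). Socs3, a brake on cytokine signalling, was higher by 0.59 ± 0.11 (adjusted p = 0.0132) on 1455899_x_at. The other probe sets of these genes did not pass. They gave 0.01 for Tnfaip3, 0.12 and 0.27 for Ptges, 0.22 for Birc3, and 0.30 and 0.59 for Socs3. Lcn2, an iron-carrier protein of inflammation, was higher by 0.34 (adjusted p = 0.0246) and was named outside the rule. Its call was lost without null replicate 1, 3, 4 or 5 (adjusted p up to 0.0592). For the chemokine gene Cxcl1, chosen after its values were seen, the probe set with the highest mean differed by 0.31 (adjusted p = 0.0623), while 2 others passed, at 0.39 and 0.58. Mmp9 and Nfkbiz, chosen in the same way, did not pass on that probe set either, at 0.30 and 0.22. The other Mmp9 probe set was higher by 0.90, and the study's own list of up-regulated genes holds Mmp9. Of the 2 other Nfkbiz probe sets, 1 was higher.

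Among 14 cell type marker lists, those of Sertoli cells, macrophages and Leydig cells were among the ones with higher means in null testes. None of the 14 passed after adjustment over the lists. With 9 arrays, 1 list alone could not pass that adjustment even at the smallest exact p possible, so it cannot decide whether a list differed. For the gene counts below, the shares over all genes were 5.82% higher and 4.82% lower. The mean log2 signal of 12 macrophage markers was 8.98 to 9.26 in null testes and 8.60 to 9.06 in WT testes, with 3 of 12 genes higher, among them Mrc1 (0.41, adjusted p = 0.0127) and Cd163 (0.58, adjusted p = 0.0346). The exact two-sided permutation test gave p = 0.0635, and 0.185 after adjustment over 14 lists. The median difference of the 12 macrophage markers was 0.25, and 0 were called lower. C1qb differed by -0.20, Cd68 by 0.05 and Fcgr1 by 0.01, without passing. Sertoli markers were higher in 8 of 11 genes, including Gstm6 (0.42) and Sox9 (0.38), with means of 11.03 to 11.21 in null testes and 10.72 to 10.94 in WT testes (exact p = 0.0159, the smallest this design allows, and 0.185 adjusted). Leydig markers were at 11.81 to 12.31 in null testes and 11.37 to 12.06 in WT testes, with 1 of 4 genes higher, Hsd17b3 (0.45; exact p = 0.111). None of these markers was below 32 on all arrays. Null replicates 1 and 5, the 2 highest for Il1r1 and Ly96, were also the 2 highest for the macrophage and Leydig means. WT replicate 1, the highest WT array for Il1r1 and Ly96, had the highest WT macrophage mean (9.06) but the lowest Leydig mean of all arrays (11.37). Il1rl2 was highest in null replicates 5 and 2, and the Sertoli mean in null replicates 1 and 4. Neutrophil markers called 0 of 7 (exact p = 0.841), and 3 of the 7 were below 32 on every array. Mast cell markers called 1 of 7, Hdc, with means of 5.25 to 5.33 in null testes and 5.16 to 5.28 in WT testes (exact p = 0.0317). Of these 7 mast cell markers, 3 were below 32 on every array, and the median difference of the 7 was -0.05. Of the germ cell lists, spermatogonia markers were at 9.66 to 9.78 in null testes and 9.53 to 9.74 in WT testes (difference 0.107, exact p = 0.0794), with 0 of 5 genes called. Spermatocyte markers were at 11.89 to 11.99 in null testes and 11.96 to 12.09 in WT testes (difference -0.074, exact p = 0.0794), with 1 of 8 genes lower. Round spermatid markers were at 12.86 to 12.95 in null testes and 12.93 to 13.03 in WT testes (difference -0.076, exact p = 0.0635), with 0 of 6 genes called. Elongating spermatid markers averaged 14.31 in both groups (exact p = 0.365), with 0 of 7 called. Their signals were high, from 13.95 for Akap4 to 14.66 for Prm1 in null testes, and their response to a loss of cells was not tested. By DNA staining in older mice, the study reported a large reduction of condensed haploid cells, its elongated spermatids. The marker means therefore do not show that such cells were unchanged. The part of these cell types in the receptor and Ly96 values was not tested.

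**Figure D5:**
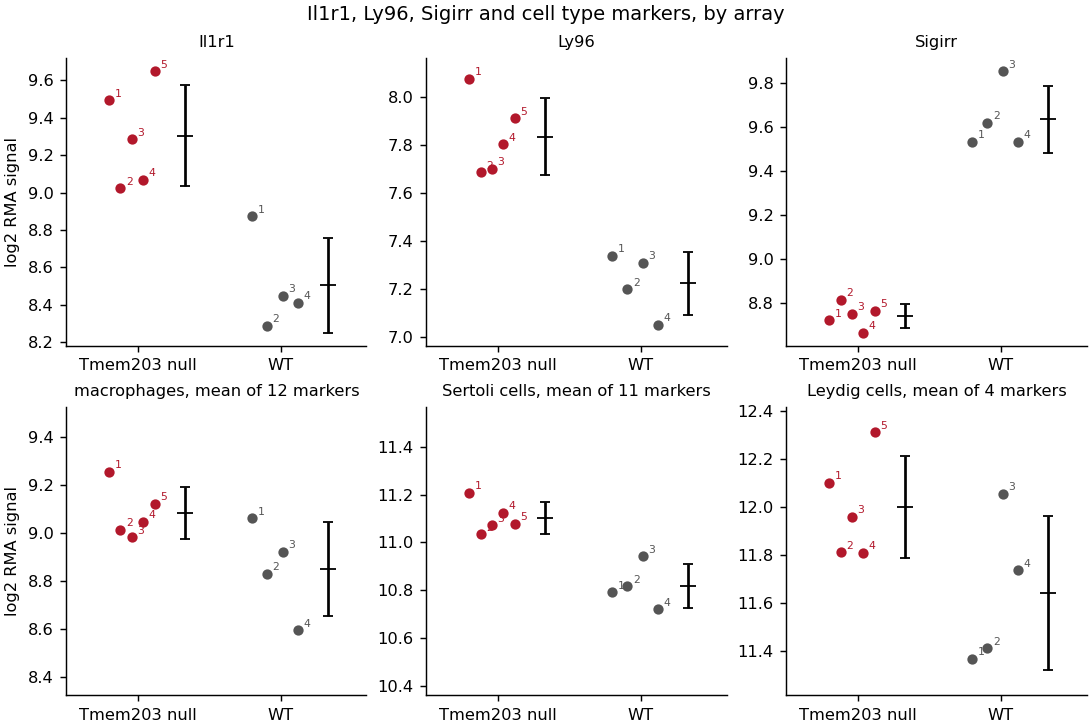
Log2 signal on each array of Il1r1, Ly96 and Sigirr (top) and of the mean of the macrophage, Sertoli and Leydig marker lists (bottom), for Tmem203 null (red, left, n = 5) and WT (grey, right, n = 4) testes, with the mean and SD as bars. Sertoli means do not overlap between groups, whereas macrophage and Leydig means do.

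The arrays were alike in level, with medians from 6.96 to 7.05, and correlated at 0.993 or more with each other. WT replicate 3 stood apart on the second principal component. As a sign of RNA quality, the 3′ minus 5′ signal of the Gapdh control averaged 0.849 ± 0.045 in null testes and 0.932 ± 0.011 in WT testes (SD, n = 5 and 4; exact permutation p = 0.0159), and that of beta-actin differed by -0.026 (exact p = 0.365). The part of this difference in the receptor values was not tested.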

How the data were processed

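Testis RNA of 5 Tmem203 null and 4 WT samples was measured on Affymetrix arrays. The deposited values are log2 signals: the authors assessed scan quality (arrayQualityMetrics) and used Robust Multichip Average for background adjustment, quantile normalization and summarization. Their notes name limma without a version. No scans or scan dates were analysed here, so batches were not tested. The null minus WT difference of every probe set was fitted by lmFit and eBayes (limma 3.58.1, R 4.3.3). Control probe sets (64) were left out, and Benjamini-Hochberg adjustment ran over the other 45037. Symbols of 34741 of 34945 single-gene probe sets were matched through RefSeq (GRCm38.p6), used for names, order and start windows. Wider lists used the probe set with the highest mean per gene. Marker means were compared by an exact permutation test.

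The text names all members, up to 4 other genes per list with the smallest adjusted p under 0.05, neighbouring genes, and 2 markers per cell type where a list is given. Members and lists were chosen with earlier results of these data known. On simulated data for 45037 probe sets, 38 of 50 changes of 1.5-fold, 46 of 50 of 2-fold, 49 of 50 of 3-fold and 50 of 50 of 4-fold were recovered. Noise was drawn independently there, and far fewer probe sets were changed than were called in the data. These shares are therefore not recovery rates for the real arrays. Alternatives covered normalization, variance model, array weights, filters, shared probe sets, the test, the replicate block and each array left out. Python 3.11.15 joined and plotted tables.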

Additional observations from a re-analysis of the deposited data

Results flagged for a closer look

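Of 34 groups of arrays tested over the 17 probe sets, 2 held a single array far from the rest. The rule flags about 1 in 20 groups by chance where values are not tied. Il1rn 1451798_at read 4.33 in WT replicate 4 while the other 3 WT arrays were tied at 4.50. Such a tie gives the flag at any distance, so the chance share does not hold for this group. Il1rap 1442614_at read 2.92 in null replicate 1, with the nearest null array at 3.24 and the highest at 3.29. Both probe sets were below a signal of 32 on every array.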

How the results depend on the processing

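Il1rl2 (1434903_s_at) kept its direction and its call under all 19 alternatives that fitted it, and could not be fitted without _s_at and _x_at probe sets, where 2 member probe sets were higher. Il1r1 lost its call with the methods' t-test after Benjamini-Hochberg (2 member probe sets higher) and against 1.2-fold, and Ly96 against 1.2-fold. Against 1.2-fold, 1 member probe set stayed higher and 1 was kept, the wider genes gave 0 higher and 2 lower, and all probe sets gave 104 higher and 172 lower. At 2-fold, 1 member probe set was kept. Ly96 missed the 1.5-fold threshold when arrays were centred on their medians, after a further quantile normalization, or without null replicate 1 or WT replicate 4, leaving 2 kept. With the methods' t-test after Benjamini-Hochberg, 971 probe sets were higher, and 7 wider genes. Centring turned the split of all calls from 1856 higher and 1511 lower to 1381 higher and 1884 lower. Same-numbered arrays correlated between -0.0636 and 0.0779 in their deviations, and differently numbered ones between -0.141 and 0.169. This check cannot decide whether the replicate numbers pair the samples. With the replicate block, 645 probe sets were higher and 529 lower, 4 wider genes were higher, and 3 member probe sets were higher. Leaving out 1 array gave 998 to 2173 probe sets higher and 910 to 1492 lower, and 8 to 14 wider genes higher, with 8 without WT replicate 2 or null replicate 1, 4 or 5. It gave 0 to 1 member probe sets lower, the 1 being Il1b without WT replicate 4. The dim Il1rl2 probe set 1450273_at changed sign under array weights (0.0368), a further quantile normalization (0.0085) and without WT replicate 3 (0.0448), over a range of -0.077 to 0.0448 with single arrays left out. The causes were not tested. Array number limits precision, and 9 of 17 member probe sets had signals under 32 on all arrays.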
